A study of Mus musculus with 2 samples.

Results

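The genes described here are the interferon-stimulated genes of the lung data set, a list of 42 symbols taken by name from the gene rows of the count matrices. The list was chosen with earlier results of these data known. Mx2 has no row and was not analysed here, so 41 members were measured among 31053 gene entries. Each was followed by its unique molecular identifiers (UMIs, counted RNA molecules) in alveolar and interstitial macrophages, dendritic cells (DCs), monocytes, lymphocytes, neutrophils and endothelial cells of mouse lung. Cells came from female C57BL/6J mice under 3 treatments, which the sample descriptions call Alum, OVA and Tolerization protocol and which are called control, asthma and tolerance below. Mice of the asthma pool were sensitised with ovalbumin in alum and then given ovalbumin through the nose, mice of the tolerance pool inhaled ovalbumin before that same protocol, and mice of the control pool received alum without ovalbumin, then saline. Cells were sorted as lung DCs and alveolar macrophages, marked by treatment with a hashtag antibody, stained with a CLEC12A tag, mixed in equal numbers and run on 2 lanes of a droplet platform. The labels name no genetic change in any group. The ages of the mice are not given in the sources used here.

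Each treatment was 1 pool of cells, and the 2 lanes held the same pools, so differences between treatments and differences between pools cannot be told apart. No p-value was computed between treatments, and every interval on such a difference is a 95% counting interval that covers counting error only. Classes of cells were compared with the 3 pools as replicates. After filtering, 9856 of 10901 barcodes remained, no barcode was shared between lanes or pools, and the pools held 7897139 to 11459855 UMIs in a lane. Between 98.47% and 99.2% of hashtag counts in a matrix came from its own hashtag.

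Cell classes were rebuilt by clustering without the members and other interferon genes, and each was named "-like" from its markers. The alveolar macrophage-like (AM-like) class held 2398 control, 1745 asthma and 842 tolerance cells, and the interstitial macrophage-like (IM-like) class held 67, 581 and 750. In the same order, the cDC1-like class held 114, 172 and 103 cells, the cDC2-like class 164, 545 and 328, the mature DC-like class 29, 184 and 66, and the nonclassical monocyte-like (NCM-like) class 81, 166 and 116. The B cell-like class held 138, 283 and 159 cells, the T cell-like class 44, 78 and 72, the endothelial-like class 133, 26 and 52, and the neutrophil-like class 35, 32 and 21. The sort and the equal mixing set these numbers, so they were not read as abundances in the lung. Chil3, an alveolar macrophage lectin, was at 12100, 44200 and 52200 CPM (UMIs per 1000000 UMIs of the class in the pool) in AM-like cells of the control, asthma and tolerance pools and at 199 to 266 CPM in B cell-like cells. C1qa, a complement gene of interstitial macrophages, was at 1960 to 3160 CPM in IM-like and 3.24 to 6.14 CPM in AM-like cells. Markers of other classes were also present in places. Chil3 was at 408, 2850 and 1490 CPM in the IM-like class of the control, asthma and tolerance pools, and in the control pool at 1150 CPM in the cDC1-like and 1590 CPM in the neutrophil-like class. The B cell marker Cd79a was at 173 CPM (16 UMIs) in control neutrophil-like cells. Siglech, a plasmacytoid DC marker, was at 0, 11.6 and 140 CPM in the B cell-like class of the control, asthma and tolerance pools. The cDC2 marker Cd209a was at 721, 478 and 198 CPM in the T cell-like class, and C1qa reached 412 CPM in the endothelial-like class of the tolerance pool.

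Type I interferons signal through the receptor chains IFNAR1 and IFNAR2 and the kinases JAK1 and TYK2 to a transcription factor complex that binds interferon-stimulated response elements in promoters. The genes it switches on include binders of viral RNA (IFIT proteins), the ubiquitin-like modifier ISG15 and its enzymes, makers of oligoadenylates that activate RNase L (OAS family), dynamin-like GTPases (Mx), cytosolic RNA and DNA sensors and restriction factors. In the lung, alveolar macrophages and plasmacytoid DCs are known producers of type I interferon during virus infection, and nearly all cells carry its receptor.

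The sequence through which the response complex acts was looked for in the promoters of the members, because the members were listed for this pathway and not for their sequences. RefSeq start-site windows of build GRCm38.p6, from 250 bases before to 50 bases after a start, were found for 31 members, and 10 had no entry. A motif of GAAA, 2 free bases (NN) and GAAA again was searched, and as TTTC, NN and TTTC for the other strand, with overlaps allowed. It stood in the windows of 20 of the 31 members (64.5%), against 3.99% of 27025 genes. Matches at 2 or more places occurred in 8 members, against 0.266% of all genes. The 250 bases before the start of 6 members are printed 5′ to 3′ along each gene, with matches in capitals. Isg15, Ifit1 and Rsad2 are shown because they lay at 8.4 CPM or less in control AM-like cells, Bst2 and Trim30a because they hold many of the UMIs, and Ifi205 because it separates the DC classes.
Isg15, chr4:156200819-156201068, minus strand: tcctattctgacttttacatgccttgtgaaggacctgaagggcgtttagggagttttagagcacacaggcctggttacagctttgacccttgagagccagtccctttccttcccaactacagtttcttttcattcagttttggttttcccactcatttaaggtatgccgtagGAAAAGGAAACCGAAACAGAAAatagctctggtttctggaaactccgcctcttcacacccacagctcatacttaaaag
Ifit1, chr19:34640639-34640888, plus strand: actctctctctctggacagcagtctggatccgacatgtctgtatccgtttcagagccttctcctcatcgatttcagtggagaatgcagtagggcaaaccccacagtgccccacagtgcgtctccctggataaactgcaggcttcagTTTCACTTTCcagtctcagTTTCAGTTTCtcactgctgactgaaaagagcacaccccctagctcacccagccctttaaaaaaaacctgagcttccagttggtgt
Rsad2, chr12:26456453-26456702, minus strand: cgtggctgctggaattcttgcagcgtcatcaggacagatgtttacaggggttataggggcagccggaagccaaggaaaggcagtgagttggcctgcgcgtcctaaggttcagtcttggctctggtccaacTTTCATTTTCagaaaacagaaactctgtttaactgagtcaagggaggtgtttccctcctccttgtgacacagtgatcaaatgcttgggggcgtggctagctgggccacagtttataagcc
Bst2, chr8:71537473-71537722, minus strand: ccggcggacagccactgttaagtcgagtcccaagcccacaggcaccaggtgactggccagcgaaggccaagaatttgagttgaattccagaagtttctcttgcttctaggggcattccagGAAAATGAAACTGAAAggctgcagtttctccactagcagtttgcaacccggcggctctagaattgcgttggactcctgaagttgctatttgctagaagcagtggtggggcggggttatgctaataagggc
Trim30a, chr7:104465194-104465443, minus strand: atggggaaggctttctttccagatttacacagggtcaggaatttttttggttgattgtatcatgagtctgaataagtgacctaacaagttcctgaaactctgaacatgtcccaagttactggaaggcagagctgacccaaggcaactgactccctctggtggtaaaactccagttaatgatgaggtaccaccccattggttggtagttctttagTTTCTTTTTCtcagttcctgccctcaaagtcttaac
Ifi205, chr1:174031756-174032005, minus strand: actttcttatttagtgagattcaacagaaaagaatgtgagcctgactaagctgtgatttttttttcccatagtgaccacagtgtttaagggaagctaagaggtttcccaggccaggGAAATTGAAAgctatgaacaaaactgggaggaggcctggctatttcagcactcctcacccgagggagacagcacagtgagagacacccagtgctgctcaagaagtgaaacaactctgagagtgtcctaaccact
The Isg15 stretch holds 3 overlapping matches that begin 78 bases before the start, and Bst2 holds 2 overlapping matches from 130 bases before. Ifit1 holds 2 separate matches on the other strand, 104 and 85 bases before the start, while Rsad2 and Trim30a hold 1 each at 120 and 36 bases. The windows of Cmpk2, Oasl2, Ifit2, Xaf1, Herc6, Samd9l, Ifi44, Ifi209, Isg20, Oasl1 and Phf11d lack these letters. The difference between the asthma and control pools in AM-like cells had a median of 4.12 on the log2 scale over 20 members with a match (range 1.16 to 6.13) and 3.64 over 10 without (0.7 to 5.73). In the tolerance pool the order was the other way, at 4.87 with and 5.22 without a match, so the letters did not sort the members by size of difference. A match is a string of letters, not a measured binding site.

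The summed members were lowest in control AM-like cells and were higher in nearly every class of the asthma and tolerance pools. In AM-like cells the sum was 468 CPM in the control pool (lanes 476 and 460), 3340 CPM in the asthma pool (3440 and 3240) and 4640 CPM in the tolerance pool (4740 and 4550). The asthma level was 7.13 times the control level (interval 6.94 to 7.34) and the tolerance level 9.92 times (9.65 to 10.2). The lanes of a pool lay close together, and every lane of an ovalbumin pool lay far above both control lanes.

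IM-like cells went from 1400 CPM in the control pool to 4030 and 5520 CPM in the asthma and tolerance pools, 2.87 times (2.62 to 3.15) and 3.93 times the control. The cDC1-like class, the cross-presenting DCs, went from 1350 to 3460 and 3970 CPM. The cDC2-like class, which mainly primes helper T cells, went from 1320 to 3970 and 4990 CPM. Both DC classes and the mature DC-like class, with 1380, 3620 and 5020 CPM, thus started near the same control level as IM-like cells. Asthma to control ratios were 2.56 (2.39 to 2.74) in cDC1-like, 3.01 (2.83 to 3.2) in cDC2-like and 2.63 (2.26 to 3.08) in mature DC-like cells.

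The NCM-like, T cell-like and B cell-like classes had a higher control level than the macrophage-like and DC-like classes and smaller asthma to control ratios. NCM-like cells, the patrolling monocytes of the vessels, held 2130, 3080 and 3680 CPM in the control, asthma and tolerance pools, an asthma to control ratio of 1.44 (1.3 to 1.61). T cell-like cells held 2190, 4070 and 4240 CPM, with control lanes of 1430 and 2670. B cell-like cells held 2700 and 2890 CPM in the control and asthma pools, a ratio of 1.07 with an interval of 0.991 to 1.16 that includes no change, and 4630 CPM in the tolerance pool. Siglech, given above, was also highest in the B cell-like class of the tolerance pool, and its part in that value was not tested. Cd209a, given above for the T cell-like class, was at 1380, 967 and 792 CPM in cDC2-like cells of the control, asthma and tolerance pools. Its part in the T cell-like values was not tested.

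Endothelial-like cells had the highest summed level in the control pool, a rank that rested on a few abundant members, as given below. They held 8240 CPM in the control pool, 7380 in the asthma pool and 10400 in the tolerance pool. The asthma to control ratio was 0.895 (0.805 to 0.994), with 26 asthma cells and lanes of 5370 and 9230 CPM. The control lanes were 7090 and 9380 CPM, so the spread between lanes was wider than the difference. The tolerance value stood beside the C1qa level given above, whose part in it was not tested. Neutrophil-like cells reached 10500 and 14800 CPM in the asthma and tolerance pools against 3830 CPM in the control, but their lanes differed widely, at 5120 and 13100 CPM in the asthma pool and 5390 and 19700 CPM in the tolerance pool. Classical monocyte-like cells passed the minimum of 20 cells in the control pool only, at 5420 CPM over 24 cells.

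The tolerance pool lay above the asthma pool in each of these 10 classes, by 1.04 times in T cell-like to 1.6 times in B cell-like cells. The T cell-like ratio had an interval of 0.954 to 1.14 and lanes of 1.32 and 0.846, and its order turned without the abundant member Ifi27l2a, at 2890 CPM in the asthma and 2560 CPM in the tolerance pool. In AM-like cells the ratio was 1.39 and in IM-like cells 1.37.

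**Figure D1:**
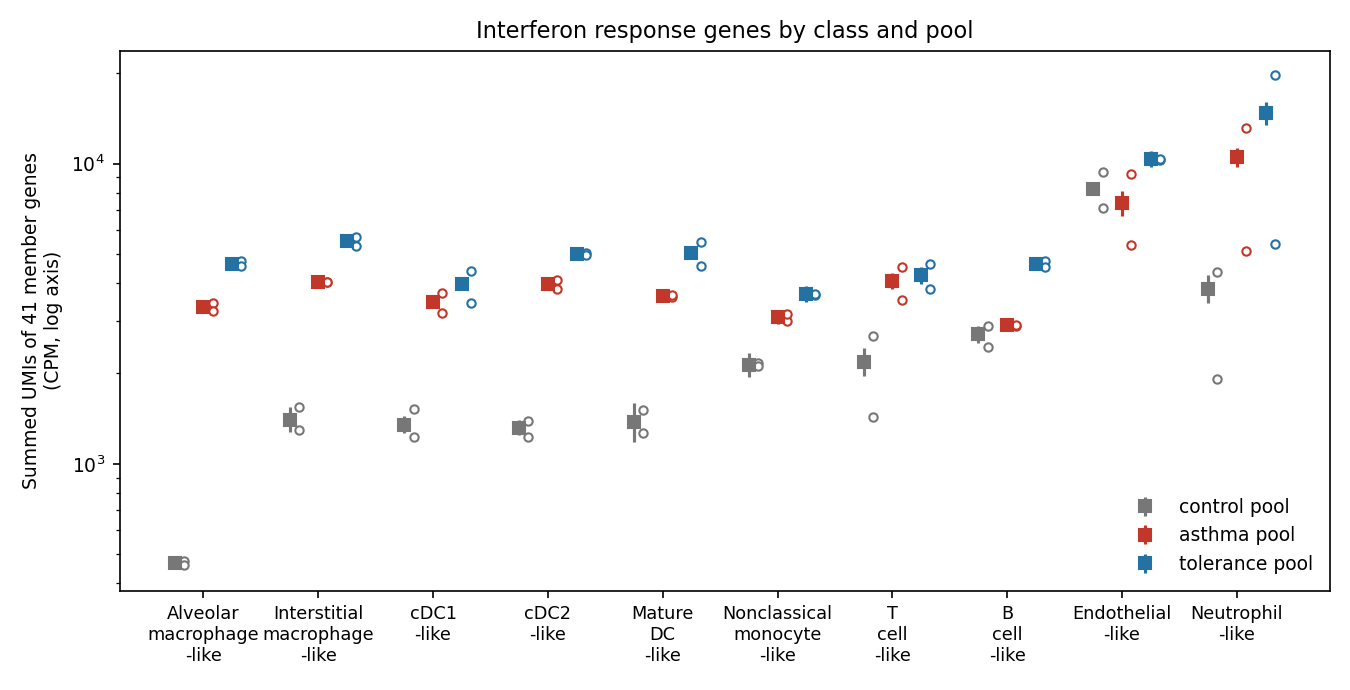
Summed UMIs of the 41 members in CPM (log axis) in 10 cell classes for the control, asthma and tolerance pools. Squares are pools with 95% counting intervals and open circles are the 2 lanes. AM-like cells lie at 468, 3340 and 4640 CPM, and endothelial-like cells lie at 7380 CPM or above in every pool.

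A few abundant members weigh on these sums. Ifi27l2a, a small interferon-induced membrane protein gene, held 21.8% of all member UMIs, and Bst2, whose product tetherin holds budding virions at the cell surface, held 12.1%. Isg15 held 7.72%, the restriction factor Trim30a 4.55% and the surface antigen Ly6a (Sca-1) 4.43%. Leaving Ifi27l2a out changed the asthma to control ratio of AM-like cells to 6.32 and that of cDC2-like cells to 3.65. With Ifi27l2a, Bst2, Isg15 and Ly6a all left out, AM-like cells stood at 329, 1890 and 2590 CPM and cDC2-like cells at 668, 2210 and 2730 CPM. Endothelial-like cells without the same 4 genes stood at 2070 CPM in the control pool and 2170 CPM in the asthma pool, so the ratio below 1 rested on these genes. Their top rank in the control pool rested on these genes too. Without them, classical monocyte-like cells stood at 3270 CPM and neutrophil-like cells at 1830 CPM in that pool.

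Nearly all members were higher in AM-like cells of the ovalbumin pools. Counting a member as higher past a 2-fold ratio, with 1 count added and at least 30 UMIs over the pair of pools, 38 of 40 measured members were higher in the asthma pool, against 3.11% of all genes measured. In the tolerance pool 40 of 41 were higher, against 3.74%. None was lower. The median difference of the members on the log2 scale was 3.72 in the asthma and 4.71 in the tolerance pool, and that of all genes was -0.11 and -0.13. These counts describe 1 pool against another, and a member near 0 in the control pool could be measured only where it was high. The members were also chosen with earlier results of these data known, so their counts are not an independent test. Both comparisons use the same control pool.

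Among the RNA-binding IFIT genes of chromosome 19, Ifit1 was at 1.31 CPM in control AM-like cells (17 UMIs, lanes 0.824 and 1.74). It stood at 72.5 CPM in the asthma pool (82.3 and 63 in the lanes) and 109 CPM in the tolerance pool (111 and 108). The ratios to control were 55.3 (34.3 to 95.6) and 83.4 (51.6 to 144). All 5 IFIT genes were past 2-fold, with a median log2 difference of 5.37 in the asthma pool. Ifit3 and Ifit3b are near-identical copies, and Ifit1bl1 overlaps Ifit1 on the genome from the opposite strand. The separate values of these genes are uncertain.

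Isg15, the ubiquitin-like modifier, was at 8.4 CPM in the control pool (lanes 7.92 and 8.83), 265 CPM in the asthma pool (270 and 260) and 370 CPM in the tolerance pool (355 and 384) in AM-like cells. Usp18, the protease that removes ISG15 and restrains the receptor, stood at 0.463, 32.6 and 49.2 CPM, with 6 control UMIs. Herc6, the ISG15 ligase in mice, was at 15.7, 45.8 and 64.2 CPM. The eraser gene thus had the larger ratio, 70.5 (32 to 194) for Usp18 in the asthma pool against 2.91 for Herc6.

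The OAS family members, which make the activator of RNase L, had a median log2 difference of 4.71 in AM-like cells of the asthma pool. Oas3 stood at 1.16, 86.6 and 109 CPM in the control, asthma and tolerance pools, and its asthma lanes were 84.7 and 88.4. Oasl2, an OAS-like protein, stood at 1.23, 69.6 and 110 CPM. The antiviral GTPase gene Mx1 stood at 0.463, 13.1 and 21.5 CPM. Oas1a and Oas1g are close copies, so their separate values are uncertain.

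Effectors that act on nucleotides and membranes differed in the size of their ratios. Rsad2, encoding viperin, which makes a chain-terminating nucleotide, was at 1.16 CPM in control AM-like cells (lanes 1.65 and 0.724). It reached 51 CPM in the asthma pool (56 and 46.2) and 123 CPM in the tolerance pool (137 and 111), ratios of 44.1 (26.4 to 79.5) and 106 (63.9 to 191). Cmpk2, the nucleotide kinase gene beside Rsad2 on chromosome 12, stood at 0.463, 25.3 and 40.7 CPM. Bst2 had more UMIs and smaller ratios, at 90.7, 564 and 651 CPM, 6.22 times (5.83 to 6.63) and 7.17 times the control.

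Cytosolic sensors differed least as a group, with a median log2 difference of 1.32 in AM-like cells of the asthma pool. Ddx58, encoding the RNA sensor RIG-I, stood at 31.5, 73.9 and 93 CPM, and Ifih1, encoding MDA5, at 27.2, 68 and 75.2 CPM. Zbp1, a sensor of Z-form nucleic acids linked to cell death, had larger ratios, at 14.8, 110 and 119 CPM. The DNA-binding PYHIN genes had a median of 3.51, with Ifi204 at 22.6, 156 and 187 CPM. Stat2, a subunit of the response complex itself, stood at 13.8, 59.5 and 68.2 CPM.

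The members short of 2-fold in AM-like cells were few. Samd9l, a restriction factor of poxviruses, stood at 26.9, 43.8 and 53.5 CPM, ratios of 1.63 and 1.99. Ly6a was almost silent in this class, at 2.08, 2.36 and 6.4 CPM, and only its asthma ratio, 1.13 (0.603 to 2.1), was short of the mark. Ifi44 had no UMI in the control pool, 4 UMIs in the asthma pool and 9.11 CPM in the tolerance pool, at least 39.4 times the level that 3 control counts would give.

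**Figure D2:**
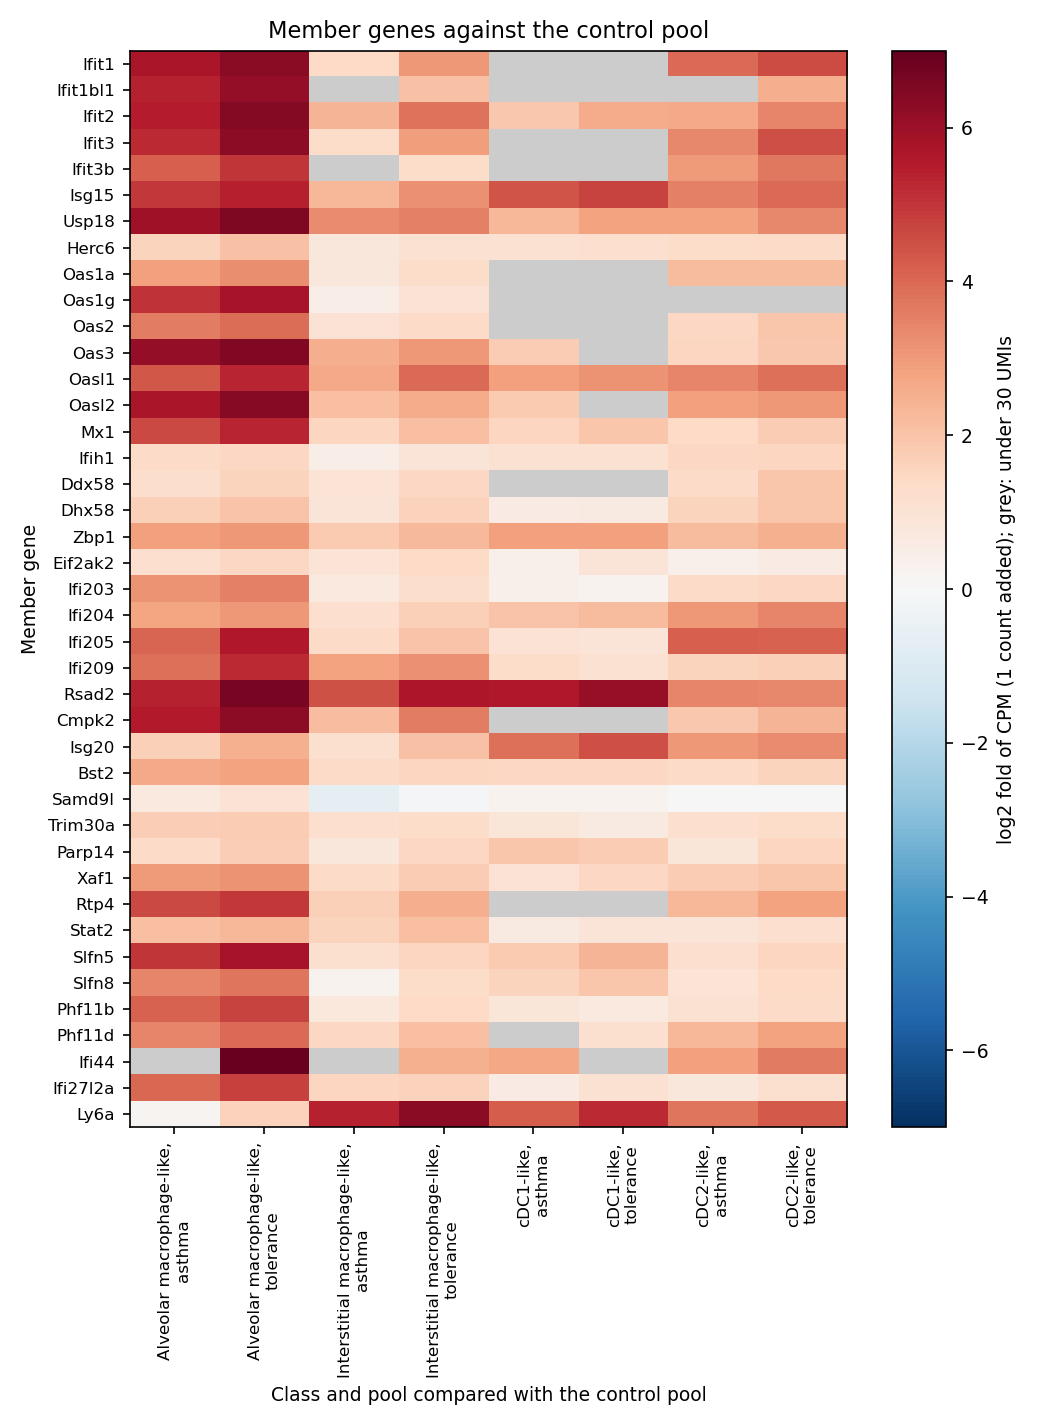
Log2 ratio of CPM (1 count added) of each member against the control pool, for 4 classes in the asthma and tolerance pools. Grey marks pairs under 30 UMIs. Red fills the AM-like columns apart from Ly6a and Ifi44 in the asthma pool, and Samd9l is pale in all columns.

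AM-like cells of the pools came from different clusters, so the pooled ratios mix a change of level with a change of makeup. Control cells were mostly in cluster 5 (1070 of 2398) and cluster 3 (871), whereas asthma cells were mostly in cluster 2 (723 of 1745) and cluster 9 (384). Within a cluster the members still differed between pools. Cluster 2, led by Chil3 and Car4, held 860, 3630 and 3920 CPM of summed members in the control, asthma and tolerance pools, with 59, 723 and 367 cells. Cluster 3, led by Hilpda and Areg, held 449, 1270 and 1190 CPM, and cluster 5, led by Fabp1 and Ear1, held 445, 1060 and 1440 CPM. Cycling cells of cluster 19 held 555, 3010 and 4340 CPM. Asthma to control ratios within clusters ran from 2.38 to 5.42 and tolerance to control ratios from 2.65 to 7.82, all below the pooled 7.13 and 9.92. The tolerance to asthma ratio was 1.08 in cluster 2 (lanes 0.971 and 1.2) and 0.937 in cluster 3 (1.13 and 0.832). It ran from 1.21 to 1.44 in clusters 5, 7, 9 and 19. Cluster 9, led by Cxcl3 and Fbp1, reached 4930 CPM in the asthma and 7030 CPM in the tolerance pool and had only 6 control cells. Chil3 was higher in the class along with the members, and Ear1 was lower, at 688, 285 and 254 CPM in the control, asthma and tolerance pools. The part of this makeup in single member ratios was not tested.

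**Figure D3:**
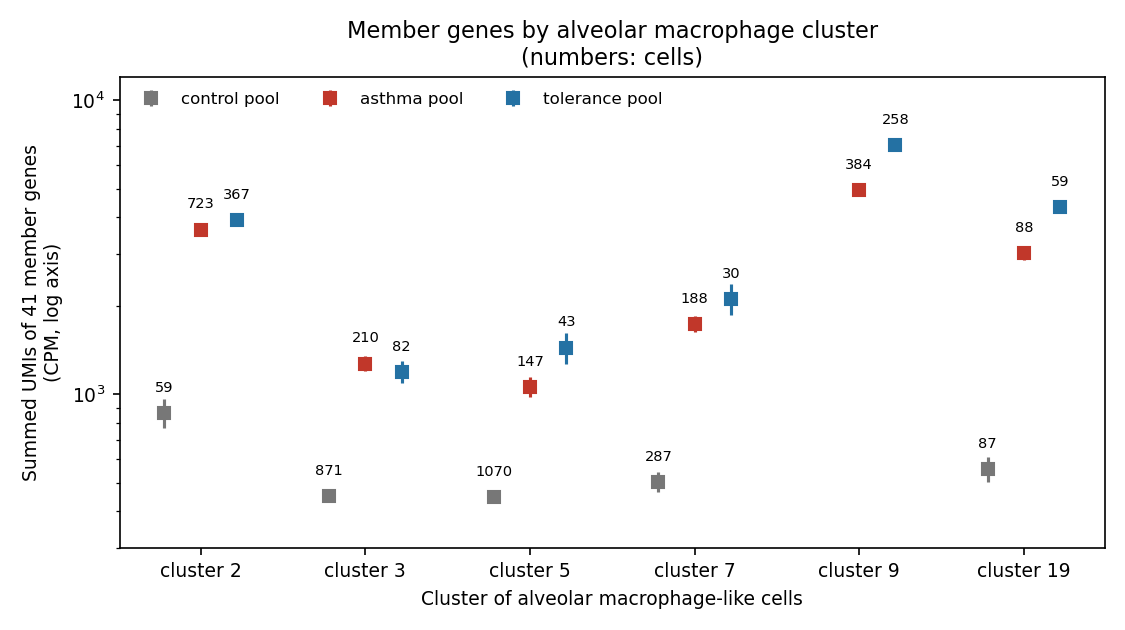
Summed UMIs of the 41 members in CPM (log axis) in 6 clusters of AM-like cells, by pool, with 95% counting intervals and the number of cells above each point. Control points lie between 445 and 860 CPM and below both other pools in each cluster that has them.

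IM-like cells of the asthma pool had 25 of 38 measured members past 2-fold higher, against 5.43% of all genes, and those of the tolerance pool 39 of 41, against 5.11%. With 5 counts added in place of 1, which moved the median of all genes to -0.45 and -0.57 on the log2 scale, the counts were 11 and 23, and with cells thinned to 1000 UMIs they were 13 of 18 and 24 of 30. Ly6a had no UMI in 67 control cells and stood at 123 CPM in the asthma pool (lanes 139 and 108) and 233 CPM in the tolerance pool (227 and 237), at least 13.9 and 26.4 times the level of 3 counts. Rsad2 likewise had no control UMI and stood at 63.1 and 149 CPM, although its tolerance lanes were 76.6 and 211. Isg15 went from 44 CPM (15 UMIs, lanes 26 and 67.1) to 236 and 426 CPM, ratios of 5.36 (3.23 to 9.62) and 9.68 (5.86 to 17.3). Ifi27l2a was already at 466 CPM in control IM-like cells and at 1300 and 1450 CPM in the other pools. Samd9l did not follow, at 44, 29.1 and 43.2 CPM. The 2 IM-like clusters had asthma to control ratios of 2.9 and 2.96. Cluster 0, led by Arg1 and Ccl24, held 32 control, 484 asthma and 567 tolerance cells, and its tolerance level was 1.52 times the asthma level. Cluster 1, led by Ccl8 and C1qc, held 35, 97 and 183 cells. There the same ratio was 0.946 (lanes 1.08 and 0.857), so the higher tolerance level of IM-like cells was seen in cluster 0 only. Under a finer clustering (resolution 2), a cluster of 508 cells led by Ccl24 and Retnla, with IM as its best score, stayed unnamed.

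In cDC1-like cells 22 of 30 measured members were past 2-fold higher in the asthma pool, against 3.2% of all genes, and 20 of 28 in the tolerance pool, against 4.44%. Without lane 1 the asthma count was 14, and without lane 2 the tolerance count was 11. With members kept in the clustering the counts were 8 of 21 and 7 of 20, and with thinned cells, where few members reached the minimum, 3 of 8 and 4 of 6. Isg15 stood at 13.8 CPM in the control pool (lanes 13 and 14.9), 318 CPM in the asthma pool (226 and 396) and 392 CPM in the tolerance pool (292 and 469). Rsad2 had no control UMI and stood at 61.5 and 85.2 CPM, at least 16.4 and 22.6 times the level of 3 counts. Isg20, an exonuclease that degrades viral RNA, went from 1 UMI to 36.2 and 55.7 CPM. Ifi205, a PYHIN gene, was already at 164 CPM in the control pool and at 333 and 306 CPM in the others. Ifi203 was at 130, 168 and 154 CPM and did not pass 2-fold.

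In cDC2-like cells 33 of 39 measured members were past 2-fold higher in the asthma pool, against 6.04% of all genes, and 38 of 40 in the tolerance pool, against 5.49%. With members kept in the clustering the counts were 15 of 34 and 14 of 31, and a separate cluster of 102 cells led by Cxcl10, Ifi205 and Oasl1, whose marker scores for cDC2 and cDC1 were nearly equal, stayed unnamed and outside both DC classes. Isg15 went from 30.6 CPM (lanes 15.2 and 43.1) to 360 CPM (323 and 391) and 486 CPM (480 and 491). Ifit1 went from 3 UMIs, 3.4 CPM, to 69.5 and 105 CPM, and Ifi205 from 2 UMIs, 2.27 CPM, to 61.9 and 58.2 CPM. Ly6a was at 15.9, 226 and 336 CPM. Samd9l was level across the pools, at 57.9, 59 and 58.2 CPM, and Ifi27l2a, at 447, 781 and 974 CPM, passed 2-fold in the tolerance pool only.

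Tolerance and asthma pools differed little by comparison. Past 2-fold higher in tolerance were 6 of 41 members in AM-like cells against 0.882% of all genes, 9 of 41 in IM-like cells against 0.892%, none of 34 in cDC1-like cells against 1.08% and 2 of 41 in cDC2-like cells against 0.547%. No member was lower in any of these 4 classes. The AM-like members were Ifit3, Ifi205, Ifi209, Rsad2, Ifi44 and Ly6a, of which Rsad2 had a ratio of 2.41 (2.13 to 2.73). In IM-like cells all 5 IFIT genes were among the 9, with Ifit1 at 30.6 CPM in the asthma and 95.5 CPM in the tolerance pool, 3.12 times (2.51 to 3.9). The AM-like count was 10 without lane 1, and the IM-like count was 3 without lane 2.

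Other classes had fewer measurable members. Mature DC-like cells had 17 of 27 past 2-fold higher in the asthma pool, against 8.72% of all genes, and 13 of 19 in the tolerance pool, against 7.33%, with Isg15 at 94.3, 664 and 1270 CPM in the control, asthma and tolerance pools. The control pool of this class had 29 cells, and with 5 counts added the asthma count was 3 higher and 1 lower while 19.6% of all genes were lower. In NCM-like cells 2 of 15 were higher in the asthma pool, against 1.4% of all genes, and 4 of 12 in the tolerance pool, against 1.38%, and Isg15 stood at 33.7, 49.5 and 101 CPM. The NCM-like tolerance count was 1 of 12 with members kept in the clustering (against 1.3% of all genes) and 2 of 22 with doublets kept (1.29%). Under a floor of 1200 genes per cell it was 1 of 21 (1.25%), and at resolution 2 it stayed at 4 of 12 (1.35%). B cell-like cells had 2 of 16 higher in the asthma pool, against 1.52% of all genes, and 4 of 15 in the tolerance pool, against 1.95%. Their Bst2, a gene that plasmacytoid DCs also express strongly, stood at 56.2, 111 and 418 CPM, beside the Siglech values above. The B cell-like tolerance count was smaller under each other clustering. It was 2 of 15 with members kept in the clustering (against 1.72% of all genes) and 2 of 13 with doublets kept (1.02%). At resolution 2 it was 2 of 12 (1.46%), and under a floor of 1200 genes per cell 1 of 8 (1.89%), with 1 lower. T cell-like cells had 5 of 11 higher in the asthma pool, against 4.64% of all genes, and 2 of 8 in the tolerance pool, against 4.24%. Their Isg15 was level at 199, 225 and 198 CPM while Ifi27l2a went from 343 to 1180 and 1680 CPM. With members kept in the clustering the T cell-like counts were 2 of 7 and 6 of 8, against 6.17% and 7.64% of all genes. At resolution 2 they were 5 of 11 and 7 of 12, against 3.89% and 4.7%. The pool with the larger count thus depended on the clustering. Endothelial-like cells had none of 10 higher in the asthma pool, against 4.33% of all genes. They had 1 lower, against 6.4%, which was Ifi203 with 2 asthma UMIs and a ratio of 0.134 (0.0159 to 0.504). In the tolerance pool 5 of 12 were higher, against 3.11%, namely Oasl2, Parp14, Isg15, Bst2 and Samd9l, with Oasl2 at 107 CPM in the control and 326 CPM in the tolerance pool (ratio 3.03, 1.74 to 5.3). Ly6a, a known endothelial antigen, stood at 5260, 3970 and 5460 CPM in this class. Neutrophil-like cells had 6 of 8 higher in the asthma pool, against 3.76% of all genes. They had 7 of 8 higher in the tolerance pool, against 9.68%, with the wide differences between lanes given above.

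Cells were then thinned to 1000 UMIs each, so that depth did not set how many members a cell could show. Of control AM-like cells 0.125% had 5 or more members detected (interval 0.0259 to 0.366), against 16.7% (15 to 18.6) in the asthma pool and 24.3% (21.4 to 27.4) in the tolerance pool. Without thinning the shares were 7.17%, 56.6% and 67.8%, and thinning left out 4, 13 and 3 cells. The cut at 5 is arbitrary, since 96 asthma AM-like cells had exactly 5 members and 157 had 4. The median AM-like cell showed 0, 2 and 2 members in the control, asthma and tolerance pools, and the highest 10, 18 and 20. The median cDC1-like cell showed 1, 2 and 1, the median cDC2-like cell 1, 2 and 2 and the median mature DC-like cell 1, 1 and 2. The tenth of cells with the most member UMIs held 32.9%, 44.9% and 53.8% of them in cDC1-like cells. This share was 37.4%, 50.5% and 51.3% in cDC2-like and 43.9%, 39.4% and 39.1% in AM-like cells. IM-like cells reached 0%, 18.8% and 28.3%, and cDC2-like cells 0.61%, 15.9% and 22%. The first share is 0 of 66 control cells, whose interval reaches 5.44%. Endothelial-like cells already had 20.2% in the control pool, and B cell-like cells 5.97%, against 23.8% and 7.91% in the asthma pool.

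**Figure D4:**
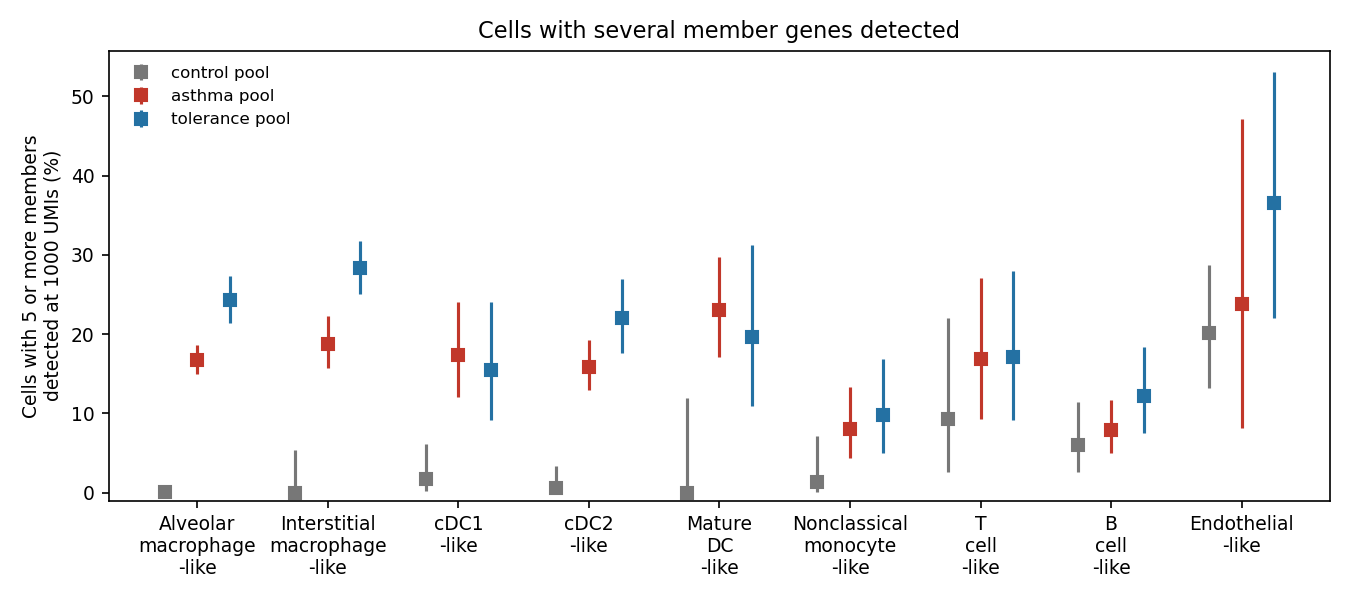
Share of cells (%) with 5 or more members detected after thinning every cell to 1000 UMIs, in 9 classes and 3 pools, with exact 95% binomial intervals. Macrophage-like and DC-like classes lie between 0% and 1.75% in the control pool and between 15.5% and 28.3% in the others, and the endothelial-like intervals overlap.

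Classes were compared across the 3 pools with edgeR's quasi-likelihood test, with pool as a block and Benjamini-Hochberg adjustment over 9979 genes, of which 40 are members. The block assumes that a class differs by the same ratio in each pool, which the AM-like values above do not follow, so these tests are averages over the pools. Against AM-like cells, IM-like cells had 11 members higher (27.5% of the 40) and 1 lower, where 17.3% of all genes were higher and 15% lower. Ly6a led, at 118 ± 116 CPM in IM-like and 3.61 ± 2.41 CPM in AM-like cells (SD, n = 3 pools), a log2 difference of 5.05 (SE 0.64, edgeR adjusted p = 3.53e-08). Phf11b, a PHD finger gene, was at 81.5 ± 39 against 26.4 ± 22.7 CPM (log2 1.95, SE 0.39, edgeR adjusted p = 9.9e-05). Ifi209, Ifi44, Slfn5, Ifi27l2a, Mx1, Usp18, Oasl1, Parp14 and Oas1a were the others higher, and Ifit1bl1 was lower. Without the control pool the fit called 15 higher and 9 lower, and without the asthma pool 2 higher.

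The DC classes differed in both directions. Against cDC2-like cells, cDC1-like cells had 4 members higher and 10 lower (25% of the 40), where 7.33% of all genes were higher and 7.12% lower. Ifi205 was at 268 ± 90.6 CPM in cDC1-like and 40.8 ± 33.4 CPM in cDC2-like cells (log2 2.92, SE 0.39, edgeR adjusted p = 9.25e-07). Oasl1, Samd9l and Trim30a were also higher. The RNA sensor gene Ddx58 was lower, at 5.54 ± 0.572 against 33 ± 19.9 CPM (log2 -2.54, SE 0.38, edgeR adjusted p = 3.67e-06). Rtp4, a chaperone of G protein-coupled receptors, was at 3.72 ± 3.37 against 53.8 ± 39 CPM (log2 -3.77, SE 0.67, edgeR adjusted p = 6.23e-05). Ifit1, Ifit3, Ifit3b, Ifit1bl1, Oas1a, Oas2, Oasl2 and Isg20 completed the lower members, so 4 of the 5 IFIT genes were lower in cDC1-like cells. The count was 23 members without the control pool, 4 without the asthma pool and 5 without the tolerance pool.

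Mature DC-like cells, which carry the migration receptor CCR7, had 8 members higher and 3 lower than cDC1-like cells, where 14.6% of all genes were higher and 21.1% lower. Herc6 was at 111 ± 48.3 against 25.8 ± 10.4 CPM (log2 2.2, SE 0.32, edgeR adjusted p = 6.64e-07). Isg15, Ifit1, Ddx58, Oasl2, Oas1a, Parp14 and Rtp4 were also higher. Ifi205 (log2 -3.71, SE 0.52, edgeR adjusted p = 8.24e-07), Ifi203 and Samd9l were lower. The total was 20 without the control pool, 6 without the asthma pool and 7 without the tolerance pool.

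NCM-like cells had no member higher and 7 lower (17.5% of the 40) than IM-like cells, where 9.17% of all genes were higher and 21% lower. At an unadjusted p under 0.05, edgeR also found 0 higher and DESeq2 called 0 higher. Bst2 was at 155 ± 13.7 against 435 ± 204 CPM (log2 -1.71, SE 0.39, edgeR adjusted p = 0.00068). The others lower were Isg15, Oasl1, Ifit2, Usp18, Oas1a and Ifit1bl1, the last without a UMI in NCM-like cells. The total was 17 without the control pool, 0 without the asthma pool and 1 without the tolerance pool. T cell-like against B cell-like cells gave 1 member higher and none lower, where 5.56% of all genes were higher and 5.21% lower. This member, Ifit1, was at 68.7 ± 39.5 against 9.87 ± 5.99 CPM (log2 2.63, SE 0.8, edgeR adjusted p = 0.0259), and the call was lost without lane 2 and without the asthma pool. At an unadjusted p under 0.05, 4 members were higher and 4 lower in T cell-like cells, and DESeq2 called 2 higher and 0 lower.

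Endothelial-like cells had 13 members higher and 6 lower than AM-like cells, where 22.7% of all genes were higher and 21% lower. Ly6a was at 4900 ± 808 CPM against 3.61 ± 2.41 CPM (log2 10.46, SE 0.75, edgeR adjusted p = 1.4e-14). Slfn5, a Schlafen family gene, was at 490 ± 63.7 against 60.4 ± 55.6 CPM (log2 3.39, SE 0.52, edgeR adjusted p = 1.12e-06). Xaf1, Oasl2, Phf11d, Ifi44, Cmpk2, Usp18, Parp14, Stat2, Rtp4, Bst2 and Samd9l were also higher. Ifi204 (log2 -4.27, SE 0.88, edgeR adjusted p = 0.000116), Ifi27l2a, Zbp1 and Trim30a were lower, and Slfn8 and Ifit1bl1 had no UMI in endothelial-like cells. Leaving out any 1 pool or lane gave 13 to 16 calls. As shares of the 40 members, 32.5% were higher and 15% lower, the latter below the share of all genes.

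**Figure D5:**
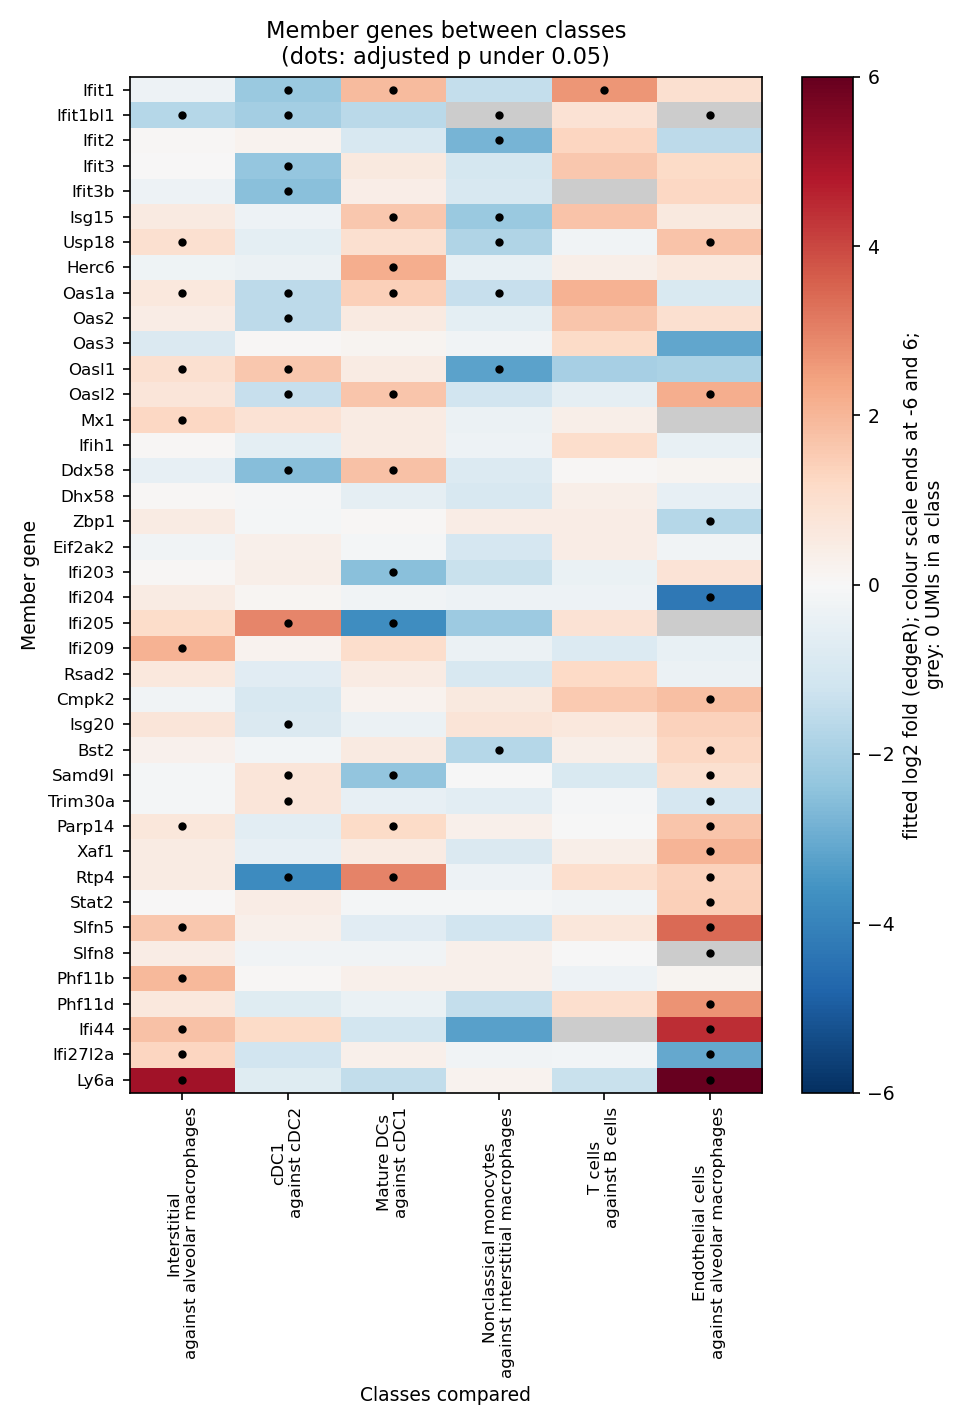
Fitted log2 difference of 40 members in 6 class comparisons, with black dots where the edgeR adjusted p is under 0.05 and grey where a class has no UMI. The cDC1-like against cDC2-like column shows Ifi205 red and the IFIT rows mostly blue, and Ly6a is deep red in both columns compared with AM-like cells.

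Genes upstream of the members had differing patterns. Transcripts of type I and III interferons were almost absent, with 1 UMI of Ifnb1, 2 of Ifnk, 1 of Ifnl2 and none of the other listed genes of this kind. Cells had been sorted as DCs and alveolar macrophages, and no cluster was named plasmacytoid DC, epithelial or stromal. These counts therefore do not measure interferon made by other cells of the lung. Ifng, the type II interferon, had 22 UMIs in 19 cells, mostly in NK and T cell-like cells. None of the 5 measured receptor genes was past 2-fold in AM-like cells of the asthma pool. Ifnar1, a chain of the type I receptor, was at 17.2, 15.2 and 16.9 CPM in the control, asthma and tolerance pools. Across classes, all 6 receptor genes tested were higher in IM-like than in AM-like cells, with Ifnar1 at 77.9 ± 11.2 against 16.4 ± 1.05 CPM (log2 2.33, SE 0.17, edgeR adjusted p = 2.51e-14).

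Signalling and regulatory genes shared the difference in part. In AM-like cells of the asthma pool 2 of 4 interferon regulatory factors and 2 of 5 feedback inhibitors were past 2-fold higher, against 3.11% of all genes. Irf7, the factor that amplifies type I interferon output, went from 4.09 CPM (lanes 3.63 and 4.49) to 115 CPM (123 and 107) and 162 CPM (163 and 162). Its asthma ratio in AM-like cells was 28.2 (21.3 to 37.9). Irf9 stood at 15.4, 63.6 and 59.5 CPM. Socs1, an inhibitor of JAK kinases, stood at 4.32, 37.8 and 35.1 CPM. Of 9 upstream sensing genes 1 passed 2-fold in the asthma pool, against the same 3.11%. Irf7 also stood at 12.5, 242 and 331 CPM in cDC1-like cells, 15.9, 199 and 265 CPM in cDC2-like cells and 44.4, 64 and 118 CPM in B cell-like cells.

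The GTPases induced mainly by interferon gamma gave a different picture by class. In AM-like cells 12 of 14 measured GTPase genes were past 2-fold higher in the asthma pool, against 3.11% of all genes, and 12 of 13 in the tolerance pool, against 3.74%. Gbp2, a guanylate-binding protein that attacks pathogen vacuoles, stood at 17.3, 155 and 175 CPM, and Iigp1, an immunity-related GTPase, at 0.154 CPM (2 UMIs), 13.8 and 31.8 CPM. In IM-like cells none of 11 was past 2-fold higher in the asthma pool, against 5.43%, and 3 of 13 were in the tolerance pool, against 5.11%, with Gbp2 at 76.2, 84.5 and 133 CPM. In cDC2-like cells 4 of 7 were higher in the asthma pool, against 6.04%. The difference between classes was not tested, because each treatment is 1 pool.

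Over 31 sums of a class in a pool, the genes outside the interferon lists whose level followed the summed members most closely were Rnf213 (Pearson r = 0.82), H2-T23 (0.77) and Rnf31 (0.67). Csf1 and Edn1 (0.6), Cript (0.57), Tax1bp1, Cmtm6 and Sbno2 (0.56) and Plk2 (0.55) came next. Among members Oasl2 (0.87), Xaf1 and Slfn5 (0.85) followed the sum most closely and Mx1 (-0.21) and Phf11b (-0.18) least. Each member was set against the sum of the other members. The 31 points share 3 pools and 2 lanes, so these values are descriptions. They mix differences between classes with differences between pools, and the abundant members given above weigh on the sum. A low value does not mean that a member was level between pools, since Mx1 was higher in AM-like cells of both ovalbumin pools.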

How the data were processed

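The deposited files are droplet count matrices, 1 for each pool in each lane, whose values are whole UMI counts per gene made by the authors, with no normalization. The submitters' processing notes name Cell Ranger 3.1.0, STAR, Seurat 3.1.5 and build mm10. Left out were 661 barcodes whose mitochondrial share was above 20%, 22 above 20000 UMIs and 619 below 500 genes. Cells at or above the cut for the top 2% of Scrublet scores in their lane, 232 of 10088 with ties, were removed as doublets, because the automatic calls took only 0.059% and 0.121% of the lanes.

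With 200 interferon genes held out, cells were clustered in scanpy 1.11.5 (2000 variable genes, 30 components, 15 neighbours, Leiden resolution 1). Clusters were named by their best marker score, with a margin of 0.5 over the next. This naming rule, and a second clustering of T and NK cells, were set after the clusters had been seen. A cycling cluster of 250 cells stayed unnamed. UMIs were summed per class and pool. CPM is UMIs per 1000000 UMIs of that sum. Intervals on single levels are exact Poisson, on shares exact binomial, both at 95%, and cover counting error only. A count of 0 was bounded by 3 counts.

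Class comparisons used edgeR 4.0.16 (quasi-likelihood, TMM, filterByExpr) in R 4.3.3 on 33 sums of at least 10 cells, with the pool as a block, since the cells of all classes of a pool come from the same mice. The fit was tested on simulated data with known changes. The SE printed with a fitted log2 difference is its absolute value divided by the square root of the F statistic. It is thus derived from the test and is not a separate estimate of precision. Alternatives were DESeq2 1.42.0, RLE scaling, no filter, no block, left-out pools or lanes, other clusterings, other minimums and thinning. Named members were those called with the largest differences, those with the most UMIs and those of a role group described. The members and lists were chosen with earlier results of these data known. A gene of the signalling lists is not reported here.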

Additional observations from a re-analysis of the deposited data

Results flagged for a closer look

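In endothelial-like cells the summed members of the asthma pool were 0.895 times the control level and lower in both lanes (0.757 and 0.984), while 9 other classes were higher in both lanes. The difference between classes was not tested. Without Ifi27l2a, Bst2, Isg15 and Ly6a the ratio was 1.05.

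A cycling cluster that fitted no class, with 25 control, 107 asthma and 118 tolerance cells, lay outside the comparisons of the report. Its summed members stood at 1100 CPM in the control pool (lanes 1060 and 1130), 2510 CPM in the asthma pool (2390 and 2570) and 3040 CPM in the tolerance pool (2580 and 3380).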

How the results depend on the processing

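Between classes, 591 refits of a called member kept its direction and call, 227 kept the direction and lost the call, and 3 turned. Without the replicate block for pool, IM-like against AM-like cells had 3 calls in place of 12, cDC1-like against cDC2-like 3 in place of 14, mature DC-like against cDC1-like 6 in place of 11, NCM-like against IM-like 1 in place of 7, T cell-like against B cell-like 0 in place of 1 and endothelial-like against AM-like 8 in place of 19. Leaving out a pool or a lane gave, in that order, 2 to 24, 4 to 23, 6 to 20, 0 to 17, 0 to 4 and 13 to 16 calls. With DESeq2 the IM-like, cDC1-like, NCM-like and T cell-like comparisons had 3, 4, 3 and 2 calls, and without a filter on low counts 19, 23, 17 and 7. RLE scaling gave NCM-like against IM-like 4 calls. With members kept in the clustering, mature DC-like had 22 calls and T cell-like 5. Keeping doublets gave mature DC-like 18, NCM-like 3 and T cell-like 3 calls. A floor of 1200 genes per cell gave cDC1-like 8, mature DC-like 17, NCM-like 1, T cell-like 0 and endothelial-like 8 calls, and a resolution of 2 gave IM-like 21, mature DC-like 23 and T cell-like 9. The causes were not tested.

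Under that floor the NCM-like against IM-like log2 differences of Ifit1bl1 (0.23), Isg15 (0.04) and Oas1a (0.08) turned positive. The cluster named NCM-like there held 235 cells, was led by the neutrophil marker S100a9 and had neutrophil as its next best score (1.448). No cluster was named neutrophil-like under that floor, and the part of this mixture in the turned values was not tested. Between pools, 5 added counts left 11 asthma and 23 tolerance members past 2-fold in IM-like cells, in place of 25 and 39, and turned Ifi205 (-0.12), Cmpk2 (-0.03) and Isg20 (-0.35) in the asthma pool and Ifit1bl1 (-0.17), Ifit3b (-0.9) and Oas1g (-0.15) in the tolerance pool. Among AM-like, IM-like, cDC1-like and cDC2-like cells, the IM-like class had the smallest control sum, at 341099 UMIs. Mature DC-like cells had a smaller one, at 127195 UMIs. The part of these sizes in the counts was not tested. A minimum of 100 UMIs left 9 asthma and 8 tolerance members in cDC1-like cells and 1 of tolerance over asthma in cDC2-like cells, where fewer genes are measured. Thinning to 1000 UMIs left 13 and 24 in IM-like, 3 and 4 in cDC1-like and 18 and 17 in cDC2-like cells, with 2, 3 and 1 of tolerance over asthma in AM-like, IM-like and cDC1-like cells. Members kept in the clustering gave 8 and 7 in cDC1-like, 15 and 14 in cDC2-like cells and 0 of tolerance over asthma in the latter. Leaving out a lane gave 36 to 37 asthma and 37 to 38 tolerance members in AM-like, 19 to 23 and 30 to 32 in IM-like, 14 to 15 and 11 to 15 in cDC1-like and 28 to 29 and 31 to 33 in cDC2-like cells. For tolerance over asthma it gave 4 to 10, 3 to 10, 0 to 1 and 1 to 3.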

Other observations

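NK cell-like cells, with 16 asthma and 15 tolerance cells, were too few for the comparisons between pools. Their summed members were at 2990 CPM in the asthma pool (lanes 3990 and 1800) and 9980 CPM in the tolerance pool (17300 and 4820).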
